A study of Bos taurus with 4 samples.

Results

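The genes described here are 9 components of insulin and insulin-like growth factor (IGF) receptor signalling. They are the receptors *IGF1R* and *INSR*, the docking proteins *IRS1* and *IRS2*, and the adaptors *GRB10* and *GRB14*. With them are the PI3K regulatory subunit *PIK3R1* and the kinases *AKT1* and *AKT2*. All 9 were chosen by name and not by a threshold on any measured value, though earlier results of these data were known. Of these, 4 genes (*GRB10*, *GRB14*, *PIK3R1* and *AKT1*) were reached through the reference accessions of the array's probes, with 6 probes among the 43653 of the array, and 5 of those 6 probes were bright enough to test. *IGF1R*, *INSR*, *IRS1*, *IRS2* and *AKT2* were not analysed here. The whole array held probes for 11054 genes with a symbol, and 32606 probes were tested.

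Insulin and IGF1 bind receptor tyrosine kinases that phosphorylate themselves and then the IRS docking proteins. These recruit PI3K through its regulatory subunit, the lipid that PI3K makes brings AKT to the membrane, and AKT turns on glucose uptake, glycogen synthesis and protein synthesis. GRB10 and GRB14 are adaptors of the GRB7 family that bind the activated receptors and dampen their signal. In skeletal muscle the pathway governs insulin-driven glucose uptake and contributes to fibre growth.

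Total RNA came from the semitendinosus, a hindlimb muscle, of 15-month-old bulls of the Hereford breed (HER, a beef breed) and of the Holstein-Friesian breed (HF, a dairy breed). There were 4 bulls per breed, and each of the 4 dual-colour arrays carried 1 bull of each breed, so that an array is the replicate. Visible fat and connective tissue had been removed before RNA was extracted, and the labels name no treatment. All arrays lay on 1 slide, so no batch could be separated, and the number of arrays limits the precision.

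On all arrays the same breed was in the same dye. The labels put HER in Cy3 and HF in Cy5, with a remark that the dyes were swapped, whereas the direction of the study's supplementary tables runs the other way, with HER in Cy5. The direction between breeds is therefore not settled by the arrays, and every signed value below is a log2 ratio of Cy5 over Cy3. On the arrays, a difference between breeds cannot be told apart from a difference between dyes. A positive value means a higher level in HER by the tables and in HF by the labels. By qPCR, the paper reported *GSK3B* lower in both of its beef breeds, HER included, than in HF, the direction of its tables. None of the members was measured by qPCR.

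The arrays had median signals of 129 to 160.5 in Cy5 and 77 to 138 in Cy3 over a background of 37 to 41, and no spot was saturated. Log2 ratios of the arrays correlated at r = 0.332 to 0.618 across the tested probes, and the median size of a mean log2 ratio was 0.14. Of the markers of skeletal muscle, 9 of the 9 matched genes, among them *ACTA1*, *CKM* and *MB*, were well above background in both channels on every array. So were 33 of the 35 marker genes of all cell types, these 9 included, so that count does not single out muscle. The mean normalized log2 intensity in Cy5 was 17.2 to 17.5 for the muscle genes and 11.3 to 12.2 for the fibroblast genes, the next brightest list.

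*GRB10* was the only one of the 4 measured genes with a called probe. Its brighter probe, A_73_P088156, gave log2 ratios of 0.73, 0.63, 0.80 and 0.91 on arrays 1 to 4. All values were positive and lay within 0.28 of each other. The mean was 0.77 ± 0.12 (SD, n = 4), a fold size of 1.70 with a 95% interval of 0.57 to 0.97 on the log2 scale, and the adjusted p of limma was 0.0256.

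The channel levels of that probe did not overlap. Its normalized log2 intensity was 13.26, 13.52, 13.28 and 13.54 in Cy5, and 12.53, 12.89, 12.48 and 12.63 in Cy3. The lowest Cy5 level thus lay above the highest Cy3 level. It was by far the brightest of the member probes, with raw median signals of 13321.5 to 20377 in Cy5 and 2734.5 to 6454 in Cy3.

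The size of the *GRB10* ratio depended on the dye normalization. Before normalization the mean log2 ratio of the brighter probe was 2.07, centring each array on its median left 1.51, and the intensity-dependent loess left 0.77. Median centring also left the tested probes with a median log2 ratio of 0.24 in place of 0.01, and relative to that median the value was 1.27. The shift was not the same for all probes. From loess to median centring a bright *CKM* probe went from 0.36 to 1.35 and a bright *ACTA1* probe from 0.13 to 1.14. A dim *LEP* probe went from 0.02 to -0.24. The *GRB10* value of 1.27, like the values below given less that median, is thus not freed of an intensity-dependent shift. The call was lost in a limma fit without any 1 array: the adjusted p was 0.0588 without array 1, 0.0840 without array 2, 0.0876 without array 3 and 0.0778 without array 4, while the log2 ratio stayed between 0.72 and 0.82.

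The dimmer *GRB10* probe, A_73_P102631, gave log2 ratios of 0.45, 0.15, 0.49 and 0.66 on arrays 1 to 4. Its mean was 0.44 ± 0.21 (SD, n = 4), with a 95% interval of 0.18 to 0.69 and a limma adjusted p of 0.0732, so it was positive on every array but not called. Normalized log2 intensities were 9.28, 9.28, 9.65 and 9.28 in Cy5 and 8.83, 9.13, 9.16 and 8.62 in Cy3, and here too the channels did not overlap. Array 2 had the smallest ratio of the 4 for both *GRB10* probes, and array 4 the largest.

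The brighter probe exceeded the dimmer one by 0.28, 0.48, 0.31 and 0.25 on the log2 scale, a mean of 0.33 ± 0.10 (SD, n = 4). An exact two-sided sign-flip permutation test gave p = 0.125, the smallest that 4 arrays allow. With both probes averaged, *GRB10* had a log2 ratio of 0.60 and a limma adjusted p of 0.0386. The files do not state which part of the transcript each probe covers.

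**Figure D1:**
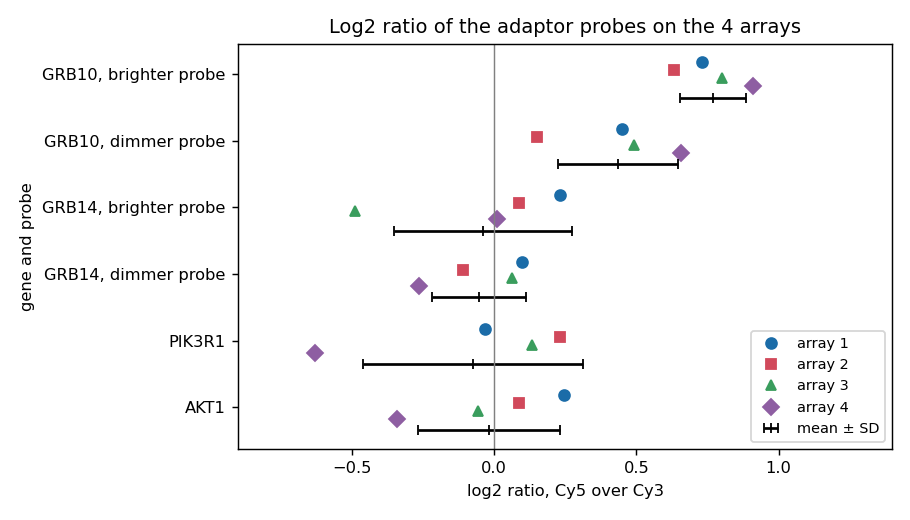
Log2 ratio of Cy5 over Cy3 (x axis) for the 6 probes of the 4 measured genes (y axis), 1 point per array, with the mean and SD over 4 arrays drawn beneath. Both *GRB10* probes lie to the right of 0 on every array, at means of 0.77 and 0.44, whereas the probes of *GRB14*, *PIK3R1* and *AKT1* have points on both sides of 0.

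*GRB14*, the closest relative of *GRB10* among the measured genes and known as an inhibitor of the insulin receptor kinase, was close to the detection limit. Its brighter probe, A_73_114416, gave log2 ratios of 0.23, 0.09, -0.49 and 0.01. Array 3 alone was negative. The mean was -0.04 ± 0.31 (SD, n = 4), with a 95% interval of -0.36 to 0.29 and a limma adjusted p of 0.890, and without array 3 it was 0.11. The scanner's own ratios gave -0.48 (limma adjusted p = 0.516), outside that interval, and median centring -0.18.

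Normalized log2 intensities of this probe were 7.36, 6.49, 6.15 and 6.37 in Cy5 and 7.13, 6.40, 6.64 and 6.36 in Cy3. After normalization array 1 was the highest in both channels. In raw median signal it was the highest in Cy5, at 166, but not in Cy3, at 76 against 84.5 on array 3 and 81 on array 4. Whether the high normalized levels came from the bulls or from the array was not tested. Raw median signals ran from 57 to 166 over local backgrounds of 35 to 45. The second probe, A_73_P390866, was well above background in Cy5 on 1 array and in Cy3 on 0 arrays, and was not tested. Its ratios were 0.10, -0.11, 0.06 and -0.26, and no fold is given for it.

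The log2 ratios of *GRB10* and *GRB14* were set against each other within each array. *GRB10* exceeded *GRB14* by 0.50, 0.54, 1.29 and 0.90 on arrays 1 to 4, higher in 4 of 4 arrays, with a mean difference of 0.81 ± 0.37 (SD, n = 4) and a 95% interval of 0.22 to 1.39. The exact two-sided sign-flip permutation test gave p = 0.125, the smallest that 4 arrays can give, so the design could not call this difference. Of the 4 pairs of related genes among the 9, this was the 1 that could be compared.

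*PIK3R1*, which encodes the p85α regulatory subunit that tethers PI3K to the IRS proteins, gave log2 ratios of -0.03, 0.23, 0.13 and -0.63 from probe A_73_105509. The arrays pointed both ways, and array 4 lay lowest. The mean was -0.07 ± 0.39 (SD, n = 4), with a 95% interval of -0.45 to 0.31 and a limma adjusted p of 0.814, and without array 4 it was 0.11. Normalized log2 intensities were 8.24, 8.29, 8.01 and 7.82 in Cy5 and 8.28, 8.06, 7.88 and 8.45 in Cy3, with overlapping channels. Array 4 held both the lowest Cy5 level and the highest Cy3 level of the gene.

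*AKT1*, the kinase that carries the signal on to growth and protein synthesis, gave log2 ratios of 0.25, 0.09, -0.06 and -0.34 from probe A_73_P031386. The mean was -0.02 ± 0.25 (SD, n = 4), with a 95% interval of -0.30 to 0.26 and a limma adjusted p of 0.949, and without array 4 it was 0.092. Normalized log2 intensities were 8.46, 8.46, 8.61 and 8.51 in Cy5, a range of 0.15, and 8.22, 8.37, 8.67 and 8.85 in Cy3, a range of 0.63. The *AKT1* level was thus nearly the same over the 4 arrays in Cy5 and more spread in Cy3. From array 1 to array 4 its Cy3 level rose in the order of the arrays' median Cy3 signals, 77, 79, 108 and 138. Whether the spread came from the bulls or from the arrays was not tested. Median centring in place of loess gave means of 0.40 for *AKT1* and 0.29 for *PIK3R1*, neither called. Less the median of 0.24 that all tested probes had there, they were 0.17 and 0.05.

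**Figure D2:**
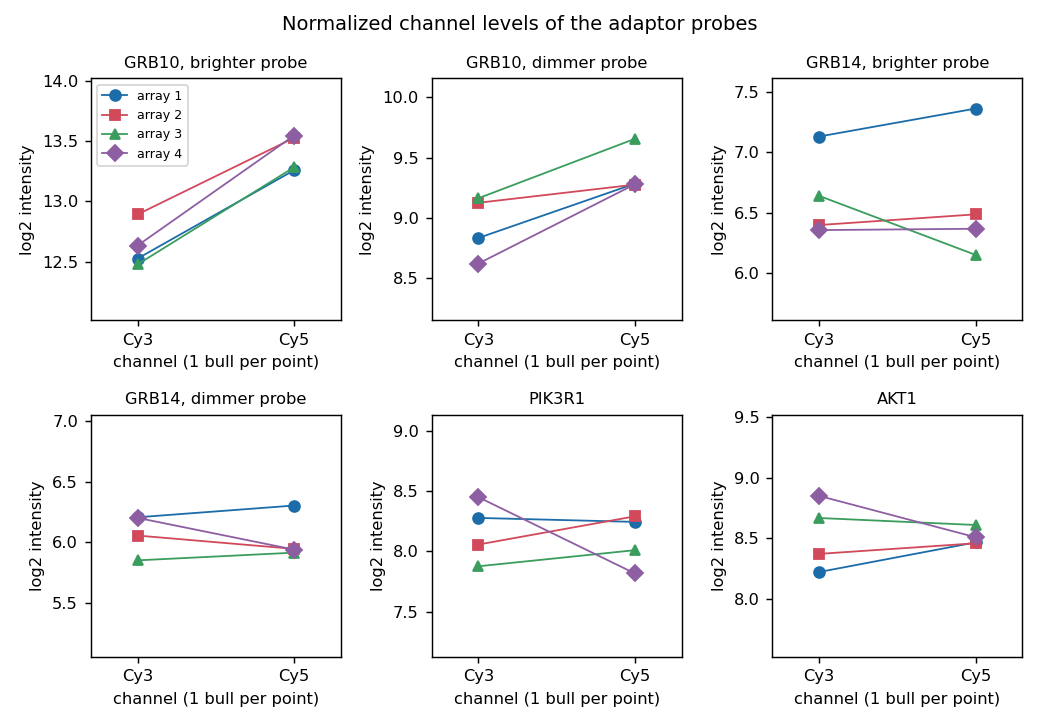
Normalized log2 intensity (y axis, a different range in each panel) in the Cy3 and Cy5 channels (x axis) of each probe, with a line joining the 2 bulls of an array. The lines of both *GRB10* probes rise on all 4 arrays with no overlap of the channels, and those of the other 4 probes cross or overlap.

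Of the 5 tested probes, 1 was called, against 3.32% of all tested probes (1083 of 32606, with 642 higher and 441 lower in Cy5). Median centring split the calls over all probes 10013 to 712. By a looser rule, an unadjusted limma p of 0.05 or below and a change of 1.3-fold or more, 2 of the 5 passed, against 14.4% of all tested probes. Ratios were above 0 on all 4 arrays for 2 of the 5 probes, against 18.3% of all tested probes with a value on every array, and the channels stood apart with Cy5 higher for 2 of the 5, against 7.63%. In each of the last 3 counts the 2 probes were those of *GRB10*. With so few probes these counts describe *GRB10* and say nothing of the genes as a group.

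In muscle tissue as a whole, fewer cells of a type and less RNA per cell cannot be told apart. Among the markers of other cell types, 2 of the 5 fibroblast genes were called lower in Cy5, *COL1A1* at -2.05 (limma adjusted p = 0.0290) and *COL3A1* at -1.68 (limma adjusted p = 0.0368). Median centring left them at -1.32 and -0.90, both called, and the call of *COL1A1* was lost without each array in turn and that of *COL3A1* without array 1, 3 or 4. The other 3 fibroblast genes were not called and pointed both ways, with *LUM* at -0.77, *DCN* at 0.42 and *PDGFRA* at 0.49, and the mean log2 ratio of the list was -0.02 on array 2 against -0.83 to -1.02 on the others. The mean normalized log2 intensity of the 5 fibroblast genes was 11.3 to 12.2 in Cy5 and 12.2 to 13.0 in Cy3. None of the 5 macrophage genes was called, though their mean level was 8.51 to 8.94 in Cy5 and 8.15 to 8.34 in Cy3, with a median log2 ratio of 0.50. No gene of the adipocyte, endothelial, smooth muscle, Schwann cell, blood or skeletal muscle lists was called, and their median log2 ratios ran from -0.47 for 4 adipocyte genes to 0.20 for 9 skeletal muscle genes. The value of 0.20 was that of *MYH1* at its brightest probe, and the other *MYH1* probes ranged from -0.93 to -0.06. The part of these markers in the *GRB10* result was not tested.

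The genes whose ratios lay nearest to those of *GRB10* on the 4 arrays, by root mean square difference among 9414 genes, were *ARID5A*, *NCOA4* and *MTIF3*. The difference was 0.0907 on the log2 scale for *ARID5A*, which encodes a DNA- and RNA-binding protein and had ratios of 0.73, 0.57, 0.96 and 0.98. It was 0.105 for *NCOA4*, a cargo receptor for the degradation of ferritin, with ratios of 0.60, 0.68, 0.96 and 0.86, and 0.110 for *MTIF3*, a mitochondrial translation initiation factor, with ratios of 0.55, 0.74, 0.88 and 0.90. In all 3, as in *GRB10*, arrays 3 and 4 had higher ratios than arrays 1 and 2. The choice of these genes rests on their ratios, so the likeness is a description.

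**Figure D3:**
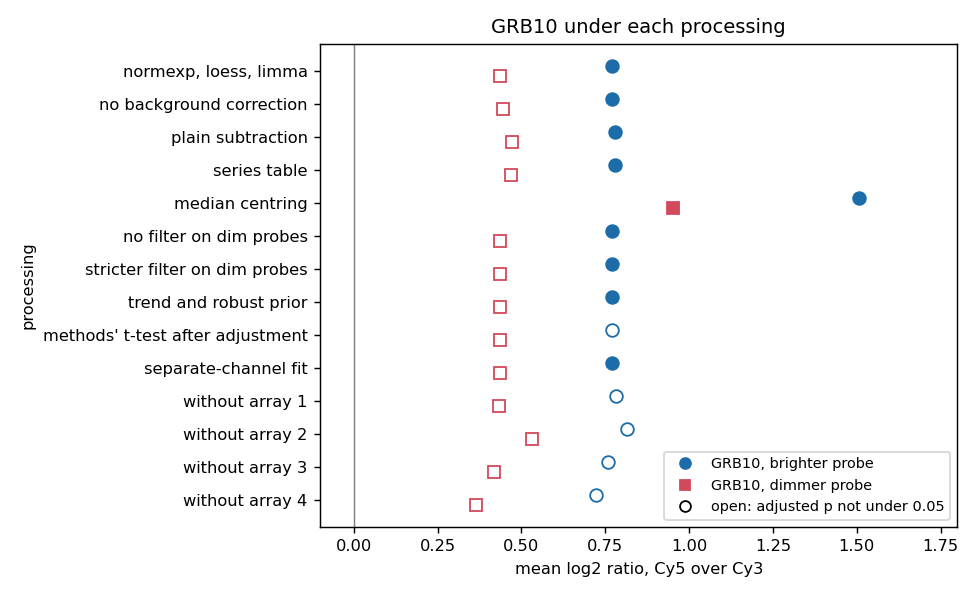
Mean log2 ratio of Cy5 over Cy3 (x axis) of the *GRB10* probes under each processing (y axis), with filled symbols where the adjusted p was under 0.05. All values lie above 0. The brighter probe stays near 0.77 except under median centring, at 1.51, and its symbol is open without each of the arrays in turn and for the test of the methods after adjustment.

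For the rest of the pathway, 66 further genes were listed by role, of which 37 had a tested probe. At the brightest probe of each gene, 3 were called higher in Cy5 (*EIF4EBP1*, *SGK1* and *GAB1*), 1 was called lower (*GSK3B*) and 33 were not called. Counted by probe, 9 of 108 were called, beside 3.32% of all tested probes. These 9 were probes of *EIF4EBP1*, *GAB1*, *SGK1*, *GSK3B* and *AKT1S1* only, so the same gene was often counted more than once. The share of genes called over the whole array was not counted, and no excess is read from these counts. The median log2 ratio of the 37 genes was 0.07, beside 0.01 over all tested probes, and the range was -0.74 to 1.32.

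Upstream, none of the 3 ligand genes was called. *IGF1*, the main growth-promoting ligand, had a log2 ratio of -0.42 ± 0.24 (SD, n = 4; limma adjusted p = 0.0934), and -0.04 under median centring, which is -0.28 less the median of the tested probes. *IGF2* had 0.07 ± 0.67 at its brightest probe, and its other probes ranged from -0.32 to 0.04, most of them below 0. *INS* had 0.05 ± 0.06. *IGF2R*, which clears IGF2 from the cell surface, had 0.44 ± 0.31 (limma adjusted p = 0.110), and its other probes gave 0.17 and -0.05. *INSRR* was not well above background and was not tested.

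Of the 4 tested docking and adaptor genes beside the members, *GAB1* was called. It encodes a docking protein that binds PI3K and the phosphatase SHP2. *GAB1* gave log2 ratios of 0.71, 0.82, 0.97 and 0.44, a mean of 0.73 ± 0.22 (SD, n = 4; limma adjusted p = 0.0355), and its second probe gave 0.72 (limma adjusted p = 0.0331). The size was thus close to that of *GRB10*, with array 4 the lowest for *GAB1* and the highest for *GRB10*. *GRB2*, which links receptors to RAS, had 0.11 ± 0.16 and *SHC1*, an adaptor that receptors phosphorylate, had -0.07 ± 0.26. Neither probe of *GRB7*, the founding member of the *GRB10* family, was well above background in either channel on any array.

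Among the other PI3K subunits, the catalytic *PIK3CA* had a log2 ratio of -0.45 ± 0.34 (SD, n = 4; limma adjusted p = 0.122), and the regulatory *PIK3R2* had 0.10 ± 0.24. Neither was called. Of the 3 kinases upstream of or beside AKT, *SGK1* was called. It encodes a relative of AKT that is induced by glucocorticoids. Log2 ratios of *SGK1* were 1.35, 1.10, 0.47 and 1.52, a mean of 1.11 ± 0.46 (SD, n = 4; limma adjusted p = 0.0419). A second probe gave 1.47 (limma adjusted p = 0.0353), and a further one was not well above background in Cy3 on any array. With no filter on dim probes the brightest *SGK1* probe was not called (limma adjusted p = 0.0512). *RICTOR*, the scaffold of the complex that phosphorylates AKT, had 0.43 ± 0.26 at its brightest probe (limma adjusted p = 0.0933). Its probes disagreed in direction: another gave -0.40, lower on 4 of 4 arrays (limma adjusted p = 0.118), and the other 3 ranged from -0.12 to 0.16.

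None of the 8 brakes on the pathway was called at its brightest probe. *INPP5D*, a lipid phosphatase of blood cells, had the largest log2 ratio at 0.82 ± 0.45 (SD, n = 4; limma adjusted p = 0.0598). It was called under 4 of 13 alternatives, with limma adjusted p from 0.00403 to 0.0431. *TRIB3*, a pseudokinase that binds AKT, had 0.34 ± 0.10 (limma adjusted p = 0.0719) and was well above background in Cy3 on 3 of 4 arrays. In the table of scanner ratios it was at 1.15 and was called (limma adjusted p = 0.0421). With plain background subtraction it was at 0.77 and was called too (limma adjusted p = 0.0417). The same held with an intensity trend and a robust prior (limma adjusted p = 0.0442). Its dimmer tested probes gave 0.08 (limma adjusted p = 0.614) and 0.06 (limma adjusted p = 0.653). *PTPN1*, the phosphatase that dephosphorylates the insulin receptor, had 0.21 ± 0.10 (limma adjusted p = 0.172).

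The genes listed as AKT targets, which lie downstream of AKT and are not all its direct substrates, held 1 called higher and 1 called lower among 9. *EIF4EBP1*, the repressor of translation initiation that is inactivated by phosphorylation, gave log2 ratios of 1.29, 0.98, 1.72 and 1.28. Its mean of 1.32 ± 0.30 (SD, n = 4; limma adjusted p = 0.0214) was the largest among the 37 genes, and its second probe gave 1.53 (limma adjusted p = 0.0139). *GSK3B*, the kinase that inhibits glycogen synthase and is itself inhibited by AKT, gave -0.67, -0.57, -0.31 and -0.72. Its mean was -0.57 ± 0.18 (SD, n = 4; limma adjusted p = 0.0434), and median centring in place of loess left 0.032, or -0.20 less the median of the tested probes. The call was also lost with plain background subtraction (limma adjusted p = 0.0555) and with the scanner's own ratios (limma adjusted p = 0.0726).

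The other 2 *GSK3B* probes gave -0.60 (limma adjusted p = 0.0472) and -0.51 (limma adjusted p = 0.0722). *AKT1S1*, an inhibitory subunit of mTOR complex 1, had -0.74 ± 0.34 (SD, n = 4) at its brightest probe, which was not called (limma adjusted p = 0.0519), and -0.70 at a dimmer one, which was (limma adjusted p = 0.0368). The brightest *AKT1S1* probe was called under 4 alternatives, with limma adjusted p from 0.0180 to 0.0489, and was at -0.07 under median centring, or -0.31 less the median of the tested probes. *SLC2A4*, the insulin-responsive glucose transporter GLUT4, had 0.65 ± 0.44 (limma adjusted p = 0.0877). Without any 1 array, the calls of *EIF4EBP1*, *GAB1*, *SGK1* and *GSK3B* at the brightest probe were all lost. Median centring gave 2.07 for *EIF4EBP1*, 1.71 for *SGK1* and 1.33 for *GAB1*, all still called. Less the median of the tested probes these were 1.84, 1.48 and 1.10. Under median centring *SLC2A4* at 1.42, *INPP5D* at 1.14 and the brightest *RICTOR* probe at 0.93 were called as well, and the dimmer *AKT1S1* probe, at -0.12, was not. In the fit to separate channels *SLC2A4* and that *RICTOR* probe were also called (limma adjusted p = 0.0401 and 0.0344).

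In the arm from RAS to ERK none of the 7 tested genes was called. Median log2 ratios by role ran from -0.17 for the 2 PI3K subunits to 0.43 for the 3 kinases, apart from the lone receptor. The value of 0.43 was that of the brightest *RICTOR* probe, between *SGK1* at 1.11 and *MAPKAP1* at -0.20. The other *RICTOR* probes ranged from -0.40 to 0.16, so it does not describe the kinases as a group.

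**Figure D4:**
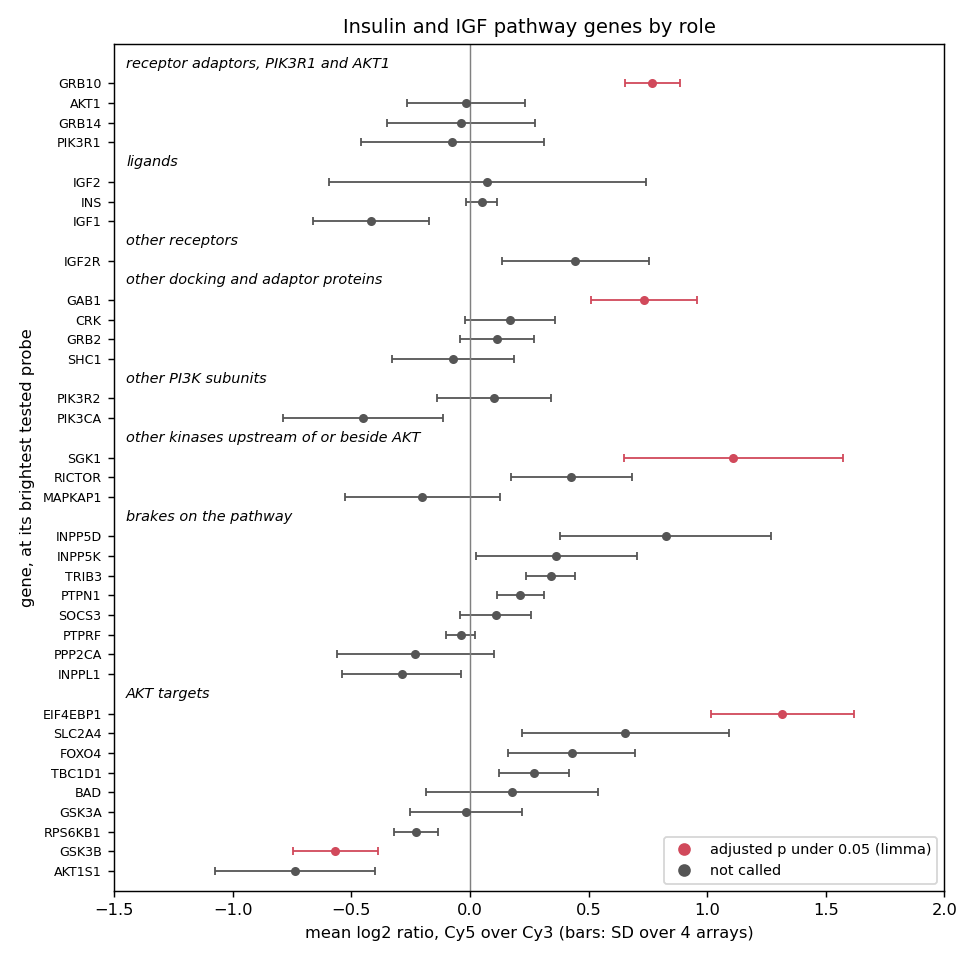
Mean log2 ratio of Cy5 over Cy3 (x axis, bars are the SD over 4 arrays) of the 4 measured members and 30 further pathway genes, each at its brightest tested probe, grouped by role and without the arm from RAS to ERK. The 5 called genes are marked in red: *GRB10* at 0.77, *GAB1* at 0.73, *SGK1* at 1.11, *EIF4EBP1* at 1.32 and *GSK3B* at -0.57.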

How the data were processed

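Each array's scanner file was deposited with median signal and background intensity values per spot which, per the file headers, Feature Extraction 10.7.3.1 had written. The deposited table of the series held log10 ratios of Cy5 over Cy3 identical to the scanner's (largest difference 0). The methods name GeneSpring for the statistics. From the intensities, background was corrected by normexp (offset 50), loess was run within each array with weight 0 for control spots, outlier-marked spots were left out and spots of a probe were averaged. Log2 ratios of probes well above background in 1 channel on all 4 arrays, with values on at least 3 arrays, were tested against 0 with limma 3.58.1 in R 4.3.3 (with data.table, version 1.17.8, and statmod 1.5.0), two-sided, and a call required an adjusted p (Benjamini-Hochberg) under 0.05. Only the limma fit was run on simulated ratios, with independent noise for each probe. The simulation held no dye bias and no normalization step, so it does not bear on those.

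Probes were named through their accession in a RefSeq gene table (23492 probes matched). No probe sequence was used. The breeds of the dyes were compared with the study's tables: of 108 genes with a tested probe, 105 had the sign of Cy5 over Cy3.

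The genes and lists were chosen with earlier results of these data known. Named were all members, the listed pathway genes with a called probe and up to 6 more by smallest p, and the 3 genes most like a called member. Some genes of the lists are not reported here. A gene is represented by its brightest tested probe. Values named beyond that rule (*IGF2*, *INS*, *IGF2R*, *GRB2*, *SHC1*, *GRB7*, *INSRR*, *PIK3CA*, *PIK3R2*, *PTPN1* and the fibroblast genes) were chosen after they were seen. Alternatives were no background correction, plain subtraction, the series table, median centring, 2 other filters, the methods' t-test, a fit to separate channels, a robust prior with an intensity trend, the mean over probes and leaving out each array.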

Additional observations from a re-analysis of the deposited data

Results flagged for a closer look

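Among 18 groups of 4 values from the member probes, 2 held a value far from the other 3, by Dixon's test at its 95% critical value of 0.829, which chance exceeds in about 1 in 20 groups. The normalized Cy5 log2 intensity of the dimmer *GRB10* probe was 9.65 on array 3, whereas the other arrays were at 9.28. The normalized Cy5 log2 intensity of the dimmer *GRB14* probe was 6.30 on array 1, the array on which its Cy5 signal was well above background, and 5.91 to 5.95 on the others.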

How the results depend on the processing

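The brighter *GRB10* probe had a log2 ratio of 0.72 to 1.51 and a limma or t-test adjusted p of 0.00130 to 0.163 over 13 alternatives. It was called in 8 and not called without each array in turn or by the methods' t-test after adjustment (0.163). The dimmer probe was called under median centring only (0.95, limma adjusted p = 0.00297). Member probes called numbered 2 under median centring, 2 by the methods' t-test at the study's criterion, 0 by that t-test after adjustment and 0 to 0 without 1 array, beside 2 at an unadjusted p under 0.05 in every one of these. Pathway probes called, 9 in limma, numbered 39, 15, 0 and 0 to 1 in the same order, and 17 in the separate-channel fit. All probes called, 1083 in limma, numbered 10725, 2887, 0 and 5 to 115 in the same order, 3210 in the separate-channel fit and 1666 with an intensity trend and a robust prior. By the t-test before adjustment, 5936 of the 32606 tested probes and 23 pathway probes had p under 0.05. The same held for 8044 of the tested probes in limma, 15218 under median centring and 5865 to 7554 without 1 array. Median centring moved the mean log2 ratios of *AKT1* (0.40), *PIK3R1* (0.29) and *GSK3B* (0.032) above 0. Less the median of 0.24 that all tested probes had there, these were 0.17, 0.05 and -0.20. That median is not the shift at each probe's own intensity. Without 1 array, *AKT1* ranged from -0.10 to 0.092, *PIK3R1* from -0.18 to 0.11 and the brighter *GRB14* probe from -0.13 to 0.11, and that probe was at -0.48 in the series table. The cause of these changes was not tested. The mean difference of *GRB10* and *GRB14* stayed between 0.65 and 1.69. In the series table it was 1.26, but the exact sign-flip permutation test gave p = 0.25 and not 0.125. The difference was thus not above 0 on every array there. *GRB14* lay too close to background for more than its interval to be read.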
